A study of Mus musculus with 30 samples.

Results

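The 10 genes described here encode secreted WNT ligands: *Wnt2*, *Wnt2b*, *Wnt4*, *Wnt5a*, *Wnt5b*, *Wnt6*, *Wnt9a*, *Wnt10b*, *Wnt11* and *Wnt16*. They were taken by symbol from a count table of 55416 mouse genes, in which each matched a single gene, and the other 9 mouse WNT ligand genes of a comparison list were kept apart. Their RNA was followed by bulk RNA sequencing in the fracture callus, the repair tissue that forms around a broken bone, in 30 young adult mice after a closed, non-stabilized fracture of the tibia. The mice were 4 WT and 4 P-Apex1KO at 3 days post fracture (3-dpf), 5 WT and 3 P-Apex1KO at 6-dpf, and 4 WT and 3 P-Apex1KO at both 10- and 14-dpf, with different animals on each day. By the study's account the 3-dpf tissue was cut from the tibia around the break, and the 6-dpf tissue was the whole callus.

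P-Apex1KO mice carry Prrx1-Cre and 2 conditional alleles of *Apex1* (Prrx1-Cre+;Apex1C/C), the gene of an enzyme that cuts abasic sites in DNA and also acts as a redox regulator of transcription factors. The Cre is driven by a *Prrx1* enhancer that is active in limb bud mesenchyme, so blood, immune and endothelial cells of the callus keep the gene. WT stands for littermates that were Prrx1-Cre+/-;Apex1C/+, Apex1C/C or Apex1C/+, so some of them carry the Cre with a single conditional allele, and no unfractured bone was measured. *Apex1* was 0.67 ± 0.11 lower in P-Apex1KO at 6-dpf on the log2 scale (SE, adjusted p = 0.0071, edgeR quasi-likelihood test with Benjamini-Hochberg adjustment, used for every adjusted p below) and 0.65 ± 0.13 lower at 10-dpf (adjusted p = 0.028). At 14-dpf the difference was -0.29 ± 0.19 (adjusted p = 0.37), with 19.8 to 27.2 CPM in WT, the counts of a gene scaled to the size of the library, and 14.2 to 18.6 in P-Apex1KO. These ranges did not overlap, which held for 42% of all genes on that day (23.4% lower and 18.5% higher in P-Apex1KO). At 3-dpf *Apex1* did not separate the groups (26.4 to 33.1 CPM in WT and 18.4 to 34.5 in P-Apex1KO), and replicate 4 of the libraries labelled P-Apex1KO held the highest value, so the 3-dpf groups below rest on their labels. Without that library no member was called at 3-dpf either, the 6 calls of the change from 3- to 6-dpf in WT and the call of *Wnt5b* for the difference between the genotypes' changes (-1.66, adjusted p = 0.0066) were kept, and *Wnt16* joined the 2 calls in P-Apex1KO (1.36, adjusted p = 0.011).

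WNT ligands are lipid-modified glycoproteins that act over short distances. Some of them act mainly through a frizzled receptor with LRP5 or LRP6, which stabilizes beta-catenin and drives transcription with TCF/LEF factors, while others act mainly through ROR and RYK receptors on cell polarity and movement, and the same ligand can do both. In the skeleton, WNT signals direct limb mesenchyme toward bone or cartilage, set the pace of chondrocyte maturation and hold back the formation of osteoclasts.

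In WT 6 of the 10 ligands rose between 3- and 6-dpf, days that differ in the tissue taken, *Wnt5b* by the largest log2 change of the members. *Wnt5b* was lower in P-Apex1KO mice at 6-dpf and had reached the WT range by 10-dpf. *Wnt4* was lower in P-Apex1KO mice at 10- and at 14-dpf but not at 6-dpf. No other member passed the threshold of 0.05 for an adjusted p between the genotypes on any day.

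**Figure D1:**
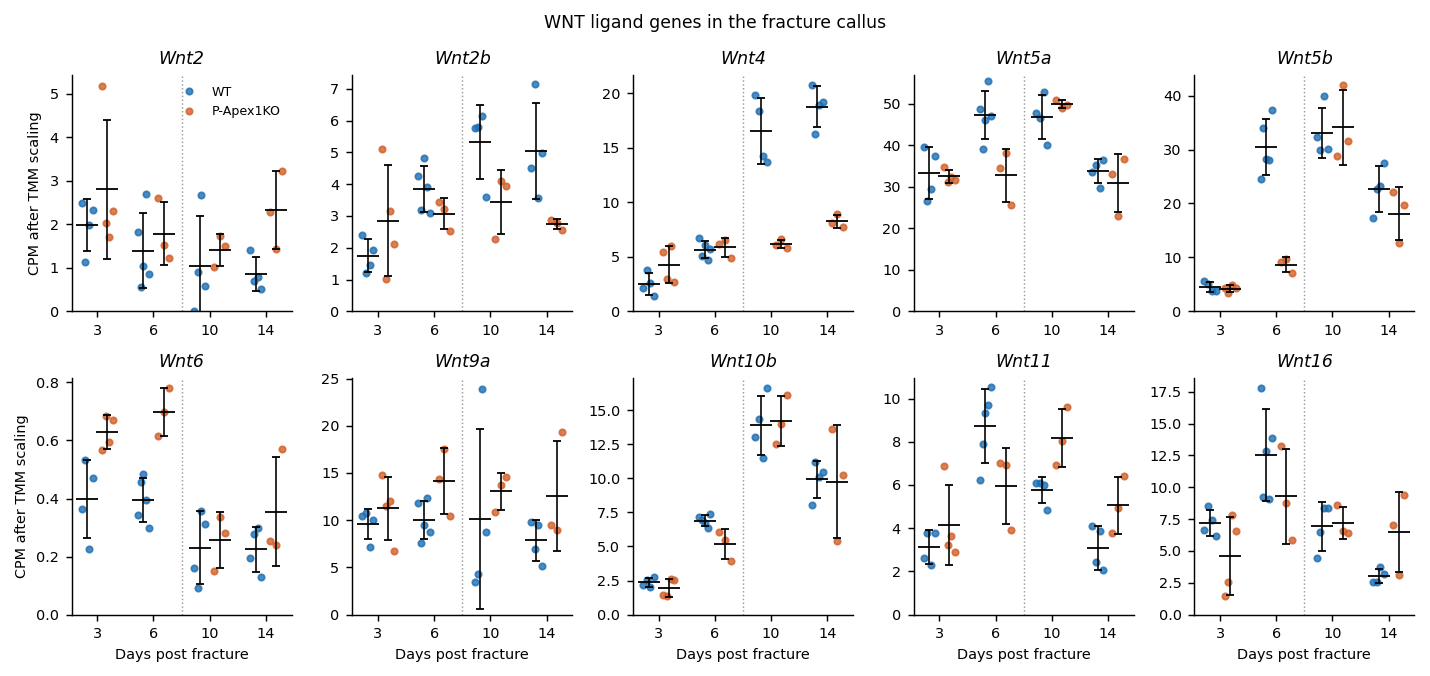
Level of each WNT ligand gene in every mouse, in CPM after TMM scaling (vertical axis, from 0), against days post fracture (horizontal axis, not to scale). Each point is 1 mouse, blue for WT and orange for P-Apex1KO, the black line is the group mean and the bar is 1 SD; the dotted line marks the step from 6- to 10-dpf, which was not tested. The 3 P-Apex1KO mice lie below all 5 WT mice for *Wnt5b* at 6-dpf, and the P-Apex1KO mice lie below all WT mice for *Wnt4* at 10- and 14-dpf.

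Levels of different genes were compared as CPM per kilobase of the canonical transcript. Summed over the 10 members, this level was 16.7 ± 1.31 in WT (SD, n = 4) and 16.5 ± 2.53 in P-Apex1KO (n = 4) at 3-dpf. At 6-dpf it was 36.1 ± 2.47 in WT (n = 5) and 23.5 ± 5.35 in P-Apex1KO (n = 3), with 32.9 the lowest WT mouse and 27.3 the highest P-Apex1KO mouse. The sums were close at 10-dpf, at 37.2 ± 5.32 in WT and 37.3 ± 3.01 in P-Apex1KO, and at 14-dpf, at 26.8 ± 1.29 and 26.3 ± 6.94. The groups overlapped on these 2 days and at 3-dpf.

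The order of the members within this sum changed with time. In WT at 3-dpf *Wnt5a* (4.60 CPM per kilobase) and *Wnt16* (4.31) were highest, with overlapping mice, and *Wnt9a* (2.73) and *Wnt5b* (1.79) followed. From 6-dpf on *Wnt5b* was the highest in WT and made up 33.3% ± 5.76 of the summed level at 6-dpf, 35.1% ± 1.67 at 10-dpf and 33.2% ± 4.72 at 14-dpf (SD, n = 5, 4 and 4). Its lead over *Wnt16*, the next at 6-dpf, was within the spread of the mice, whereas its lead over *Wnt5a* at 10- and 14-dpf was not. In P-Apex1KO at 6-dpf *Wnt5b* ranked 4, with 14.7% ± 1.34 of the sum (n = 3), behind *Wnt16*, *Wnt5a* and *Wnt9a*, and the mice of neighbours in this order overlapped. At 10-dpf it held 35.8% ± 4.49 of the sum in P-Apex1KO. The place of *Wnt4* in WT went from 8 at 3-dpf to 5 at 10-dpf and 3 at 14-dpf, where it made up 15.2% ± 1.90 of the sum; in P-Apex1KO it ranked 7 at 10-dpf with 3.60% ± 0.23 and 6 at 14-dpf with 7.28% ± 2.72. By the canonical length *Wnt6* was the lowest of the 10 in all 8 groups. The order depends on the transcript taken as the length: the canonical *Wnt5b* transcript has 2540 bases and all its annotated exons together 5702, and over all exons *Wnt5a* led in all 8 groups. By that length *Wnt2* ranked 10 and *Wnt6* 9 in P-Apex1KO at 3-dpf, in both genotypes at 6-dpf and in WT at 14-dpf. The shares of the sum given above rest on the canonical length too.

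**Figure D2:**
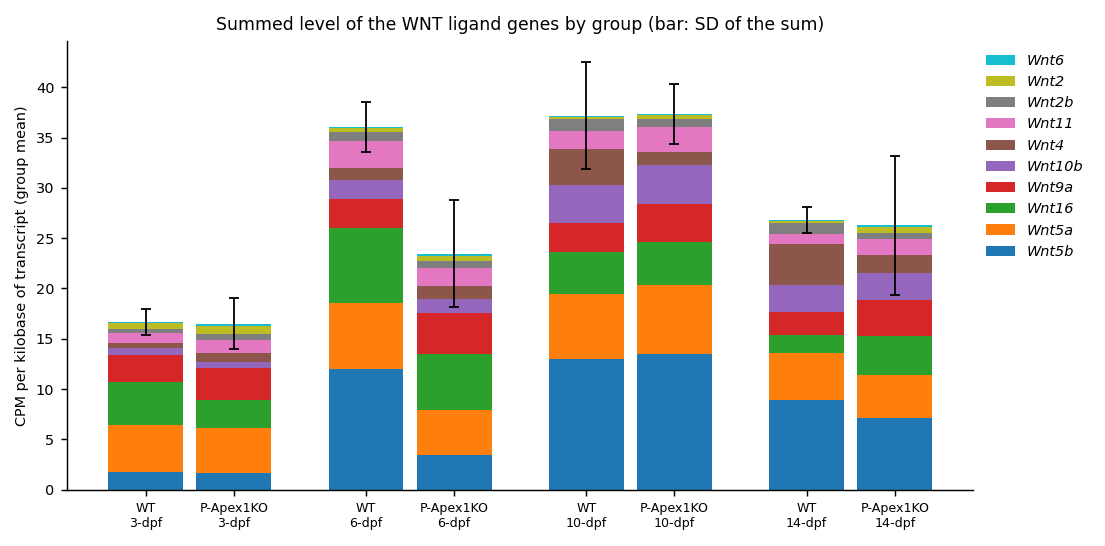
Mean level of the 10 WNT ligand genes in each group, stacked, in CPM per kilobase of canonical transcript (vertical axis, from 0), for WT and P-Apex1KO mice on each day. The black bar is the SD of the sum over 3 to 5 mice; the lowest segment, *Wnt5b*, is 11.99 in WT and 3.41 in P-Apex1KO at 6-dpf.

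Between 3- and 6-dpf, as the soft callus formed, 6 of the 10 members rose in WT, a day-to-day change that 15.4% of 20468 genes showed in that direction (30.5% in either). No member fell, beside 15.1% of genes. The tissue taken differed between these days, and its part in the changes was not tested. The median log2 change of the members was 0.88, beside -0.03 over all genes tested. In P-Apex1KO 2 members rose, beside 7.1% of all genes (14% in either direction), and none fell, beside 6.91%, and the median of the members was 0.40, beside 0.01. The difference between these changes, tested for each gene, passed the threshold for *Wnt5b* alone, beside 1.3% of all genes (0.987% in its direction and 0.318% in the other).

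*Wnt5b* and its close relative *Wnt5a* encode ligands known mainly for signaling without beta-catenin, and both act on chondrocytes of the growth plate. *Wnt5b* lies on chromosome 6 (GRCm39, chr6:119409323-119521897, minus strand, 5 exons in its canonical transcript). At 3-dpf it stood at 5.55, 5.14, 3.84 and 3.70 CPM in the WT mice and at 4.35, 3.40, 4.95 and 4.24 CPM in the P-Apex1KO mice. The groups overlapped, and the log2 difference was -0.08 ± 0.20 (adjusted p = 0.97). At 6-dpf it stood at 24.5, 34.1, 28.3, 28.1 and 37.3 CPM in WT and at 9.22, 9.70 and 7.03 CPM in P-Apex1KO. All P-Apex1KO mice were thus far below the lowest WT mouse, though above every 3-dpf mouse. The log2 difference between genotypes was -1.78 ± 0.17 (adjusted p = 0.00075), and the call held in every alternative fit, between -1.88 and -1.61. *Wnt5b* was 1 of 10 members called at 6-dpf, where 10.9% of 20260 genes were called, 5.61% lower and 5.31% higher. From 3- to 6-dpf it rose by a log2 change of 2.696 ± 0.17 in WT (adjusted p = 4.6e-08) and of 1.03 ± 0.18 in P-Apex1KO (adjusted p = 0.0022), and the difference between these changes was -1.67 ± 0.25 (adjusted p = 0.0037).

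Cell type markers moved with *Wnt5b* at 6-dpf. All 8 cartilage markers, among them *Col2a1*, *Acan* and *Sox9*, were lower in P-Apex1KO, and their summed level ran from 30980 to 55120 CPM in WT and from 2651 to 4459 CPM in P-Apex1KO. Of 4 hypertrophic chondrocyte markers 3 were lower (3270 to 5697 CPM and 622 to 1007 CPM). Of 8 markers of osteoblasts and osteocytes 7 were lower, with sums of 38260 to 53650 CPM in WT and 17720 to 27830 CPM in P-Apex1KO. Skeletal muscle moved the other way, with 7 of 8 markers higher and sums of 4865 to 8809 CPM in WT and 10520 to 22640 CPM in P-Apex1KO, as did 5 of 6 macrophage and 5 of 6 T cell markers. No marker of these lists was at 0 in any group, and their part in the result was not tested. In bulk tissue, fewer cells of a type and less RNA per cell cannot be told apart.

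At 10-dpf *Wnt5b* stood at 32.4, 30, 39.9 and 30 CPM in WT and at 28.8, 42.0 and 31.7 CPM in P-Apex1KO. At 14-dpf it stood at 17.3, 22.6, 23.3 and 27.6 CPM in WT and at 22.1, 12.6 and 19.7 CPM in P-Apex1KO. The genotypes overlapped on both days. The log2 differences were 0.01 ± 0.14 (adjusted p = 0.97) at 10-dpf and 0.10 ± 0.28 (adjusted p = 0.86) at 14-dpf. The last has the opposite sign to the group means of 22.7 CPM in WT and 18.1 CPM in P-Apex1KO, because the fit with sex sets the P-Apex1KO females against the only WT female, which had 17.3 CPM; without the sex term it was -0.29 (adjusted p = 0.31). None of the 8 cartilage markers was called at 10-dpf, with sums of 16850 to 43530 CPM in WT and 10800 to 19010 CPM in P-Apex1KO. At 14-dpf 7 of them were higher and 1 was lower in the fit with sex, although the sums overlapped, at 2965 to 7517 CPM and 4665 to 5462 CPM.

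Since *Wnt5b* was the member that separated the genotypes at 6-dpf and *Wnt4* the one that did so later, the sequence just before the start of their canonical transcripts is shown. The *Wnt5b* stretch is chr6:119521309-119521500 on the minus strand of GRCm39, 192 bases, and stops where an exon of another *Wnt5b* transcript lies. The *Wnt4* stretch is chr4:137004123-137004372 on the plus strand, 250 bases. Both are written 5′ to 3′ in the direction of the gene, and capitals mark matches, on either strand, to letters searched in every promoter.
Wnt5b: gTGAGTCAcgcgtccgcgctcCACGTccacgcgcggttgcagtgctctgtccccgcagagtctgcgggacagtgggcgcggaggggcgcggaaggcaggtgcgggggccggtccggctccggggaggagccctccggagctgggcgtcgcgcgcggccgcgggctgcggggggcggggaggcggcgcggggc
Wnt4: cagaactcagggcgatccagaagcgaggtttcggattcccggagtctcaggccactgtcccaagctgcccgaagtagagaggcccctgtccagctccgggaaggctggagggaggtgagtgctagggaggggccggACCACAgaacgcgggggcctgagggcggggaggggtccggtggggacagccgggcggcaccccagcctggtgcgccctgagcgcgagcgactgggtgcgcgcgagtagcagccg

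The letters searched were TGANTCA, the AP-1 element, ACGTG, the core of the hypoxia response element, CTTTGNN, the core of the TCF/LEF site, and TGTGGT, the core of the RUNX site, each on both strands and in the 250 bases before the start. *Wnt5b* held TGANTCA at -191, a pattern found in 6.19% of the 21627 promoters of protein-coding genes, ACGTG at -171, found in 17.0%, and CTTTGNN at -213, beyond the stretch shown and found in 49.0%. *Wnt4* held TGTGGT at -114, found in 13.1% of promoters. Among the other members TGANTCA was matched in *Wnt16* at -248, ACGTG in *Wnt2b* at -154 and in *Wnt9a* at -39 and -38, where the matches on the 2 strands overlap, and CTTTGNN in *Wnt5a* at -194. *Wnt2*, *Wnt6*, *Wnt10b* and *Wnt11* had no match to any of the 4. Over the full 250 bases before the start, which for *Wnt5b* reach beyond the stretch shown, the share of G and C was highest in *Wnt5b* (75.2%) and *Wnt4* (70.4%). In the other members this share ran from 56.8% in *Wnt11* to 68.0% in *Wnt6*. These matches describe letters only.

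*Wnt5a*, whose protein signals through ROR2 and is needed for limb outgrowth, stood at 39.5, 26.6, 29.4 and 37.4 CPM in WT and at 34.7, 31.2, 32.3 and 31.7 CPM in P-Apex1KO at 3-dpf. At 6-dpf it stood at 48.6, 39.0, 46.1, 55.4 and 47.1 CPM in WT and at 34.6, 38.0 and 25.7 CPM in P-Apex1KO. The genotypes overlapped at 3-dpf and did not overlap at 6-dpf, where the P-Apex1KO mice were lower. Lack of overlap at 6-dpf was seen for 20.6% of all genes tested (11.9% lower and 8.71% higher) and for 4 of the 10 members, *Wnt5a*, *Wnt5b* and *Wnt10b* below WT and *Wnt6* above it. The log2 difference of *Wnt5a* at 6-dpf was -0.49 ± 0.15 (adjusted p = 0.063), which missed the threshold; it passed in 5 of 16 alternative fits, with DESeq2 (adjusted p = 0.026), without the sex term (0.036), without a filter on low counts (0.028), with all samples in the model (0.013) and without replicate 2 of P-Apex1KO (0.029). In WT *Wnt5a* rose from 3- to 6-dpf by a log2 change of 0.49 ± 0.13 (adjusted p = 0.0088), a call that was lost with library size alone as the scaling (0.25, adjusted p = 0.084). In P-Apex1KO the change was 0.03 ± 0.14 (adjusted p = 0.93), and the difference between these changes was -0.46 ± 0.19 (adjusted p = 0.32). At 10-dpf it ran from 40.0 to 52.8 CPM in WT and from 48.9 to 50.9 CPM in P-Apex1KO, and at 14-dpf from 29.7 to 36.5 CPM and from 23.0 to 36.6 CPM. The genotypes overlapped on both days.

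*Wnt11*, another ligand known for signaling on cell polarity and movement, stood at 6.22, 7.90, 9.33, 9.70 and 10.5 CPM in WT and at 7.002, 6.93 and 3.91 CPM in P-Apex1KO at 6-dpf. The log2 difference was -0.50 ± 0.24 (adjusted p = 0.21), and the groups overlapped. At 10-dpf it stood at 6.09, 6.07, 6.00 and 4.84 CPM in WT and at 6.92, 8.03 and 9.60 CPM in P-Apex1KO. Here all P-Apex1KO mice were above WT. Lack of overlap at 10-dpf was seen for 2 of 9 members, *Wnt11* and *Wnt4*, beside 19.3% of all genes (8.79% higher and 10.5% lower). *Wnt11* had a log2 difference of 0.51 ± 0.17 that missed the threshold (adjusted p = 0.11). In WT it rose from 3- to 6-dpf by 1.45 ± 0.28 (adjusted p = 0.0010). In P-Apex1KO the change was 0.52 ± 0.31 (adjusted p = 0.29), and without replicate 1 of P-Apex1KO at 3-dpf, whose 6.88 CPM was the highest of that day, it was 0.88 (adjusted p = 0.032). Over the 16 fits with 1 mouse left out it ran from 0.37 to 0.88, and only this 1 passed the threshold. At 3- and 14-dpf the genotype differences of *Wnt11* were 0.37 ± 0.33 (adjusted p = 0.90) and 0.33 ± 0.43 (adjusted p = 0.66).

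*Wnt4* encodes a ligand best known for its part in kidney tubule and ovary formation, which can signal with or without beta-catenin. The gene lies on chromosome 4 (GRCm39, chr4:137004373-137027037, plus strand, 5 exons in its canonical transcript). At 10-dpf *Wnt4* stood at 19.8, 18.4, 14.2 and 13.7 CPM in WT and at 6.11, 6.63 and 5.85 CPM in P-Apex1KO. At 14-dpf it stood at 20.8, 16.3, 19.0 and 19.2 CPM in WT and at 8.12, 8.90 and 7.75 CPM in P-Apex1KO. On both days every P-Apex1KO mouse was below the lowest WT mouse. The log2 difference was -1.34 ± 0.14 at 10-dpf (adjusted p = 0.0061) and -1.30 ± 0.16 at 14-dpf (adjusted p = 0.0031). The calls held in every alternative fit, between -1.47 and -1.16 at 10-dpf and between -1.49 and -1.03 at 14-dpf. *Wnt4* was 1 of 9 members tested that was called at 10-dpf, beside 6.46% of 18910 genes (3.44% lower and 3.01% higher), and 1 of 10 at 14-dpf, beside 11.3% of 20228 genes (7.04% lower and 4.28% higher). Its genotype difference did not change detectably from 10- to 14-dpf, with a log2 difference of -0.01 ± 0.20 (adjusted p = 0.99).

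Before that, *Wnt4* did not separate the genotypes by the test. At 3-dpf it stood at 2.16, 3.82, 2.59 and 1.44 CPM in WT and at 5.43, 2.96, 6.03 and 2.69 CPM in P-Apex1KO, where replicates 1 and 3 were above every WT mouse and the other two were within the WT range. The log2 difference of 0.99 ± 0.29 had the smallest unadjusted p of the members on that day (0.0084) but an adjusted p of 0.77. All 8 skeletal muscle markers were above 0 that day, 7 of them at an unadjusted p under 0.05 and none past the threshold, and the muscle sum was highest in the same P-Apex1KO replicates 1 (19540 CPM) and 3 (14160 CPM), beside 10970 and 7110 CPM in replicates 2 and 4 and 6112 to 8111 CPM in WT. Other lists set these mice apart too. Replicate 1 had the lowest neutrophil (796 CPM) and erythroid (133 CPM) sums of the P-Apex1KO mice, and replicate 3 the highest osteoblast and osteocyte sum (20890 CPM). The fibroblast and periosteal progenitor sum was also highest in replicates 3 (4138 CPM) and 1 (3243 CPM) of the P-Apex1KO mice. It was 2452 and 2092 CPM in replicates 4 and 2 and 3357 to 4252 CPM in WT. At 6-dpf 7 of 8 muscle markers were higher in P-Apex1KO, a day on which *Wnt4* did not differ by the test. The part of muscle or of any other tissue in the 3-dpf difference was not tested. At 6-dpf *Wnt4* stood at 6.72, 5.04, 6.09, 4.73 and 5.70 CPM in WT and at 6.22, 6.52 and 4.90 CPM in P-Apex1KO, with a log2 difference of 0.16 ± 0.16 (adjusted p = 0.60). In WT *Wnt4* rose from 3- to 6-dpf by 1.13 ± 0.23 (adjusted p = 0.0015). The change in P-Apex1KO was 0.46 ± 0.25 (adjusted p = 0.24), and the difference between the changes was -0.67 ± 0.34 (adjusted p = 0.44). The P-Apex1KO mice at 10-dpf thus lay within the range of the WT mice at 6-dpf, while the WT mice at 10-dpf lay above it, a step that was not tested because the library names change between these days.

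Bone markers moved with *Wnt4*. At 10-dpf 6 of 8 markers of osteoblasts and osteocytes were lower in P-Apex1KO, with summed levels of 41980 to 60220 CPM in WT and 18070 to 27410 CPM in P-Apex1KO, and so were 4 of 6 osteoclast markers (1776 to 4434 CPM and 816 to 1202 CPM). At 14-dpf 5 of 8 markers of osteoblasts and osteocytes were lower (71020 to 96880 CPM and 17660 to 19130 CPM), and 6 of 6 osteoclast markers were (7479 to 8586 CPM and 1054 to 1956 CPM). Of 6 macrophage markers 4 were higher on both days, and 2 were lower at 14-dpf. No skeletal muscle marker was called on these days, and the muscle sums were 3406 to 7359 CPM in WT and 6295 to 20460 CPM in P-Apex1KO at 10-dpf, and 2414 to 8379 CPM and 9395 to 27440 CPM at 14-dpf. At 10-dpf 2 of 4 hypertrophic chondrocyte markers were lower, and at 14-dpf 1 was lower and 2 were higher in the fit with sex. The sums of this list overlapped at 14-dpf, at 3981 to 8426 CPM in WT and 3430 to 8394 CPM in P-Apex1KO. The only WT female of that day, on which the fit with sex rests, had the lowest WT sum (3981 CPM). Adipocyte markers were higher in 3 of 5 cases at 6-dpf, 4 at 10-dpf and 0 at 14-dpf, and T cell markers in 5, 1 and 0 of 6. Of 6 neutrophil and 5 erythroid markers 4 each were higher at 14-dpf and none was called at 6- or 10-dpf. Endothelium had 1 of 6 markers lower at 10-dpf and 2 lower and 1 higher at 14-dpf, and fibroblasts and periosteal progenitors 1 of 7 higher at 6-dpf and 1 lower at both 10- and 14-dpf. Synovial lining and tendon had 2 of 5 higher at 6-dpf and 1 at 14-dpf, B cells 1 of 5 tested higher at 6-dpf, and keratinocytes none of 2 tested. No osteoclast marker was called at 6-dpf, and no marker of any list at 3-dpf. The same bone list was also lower at 6-dpf, where *Wnt4* did not differ by the test. The only markers at 0 in every mouse of a group were those of keratinocytes, *Krt14* in P-Apex1KO at 3-dpf, *Krt1* in P-Apex1KO at 6-dpf and *Dsg3* in WT at 14-dpf. The part of these lists in the result was not tested.

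**Figure D3:**
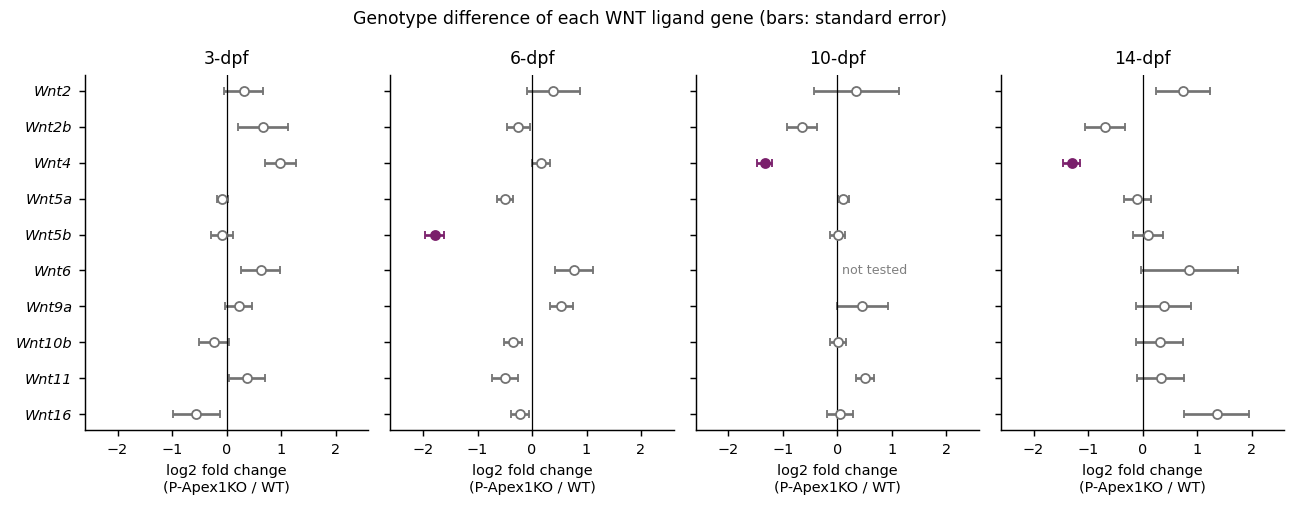
Log2 fold change of each WNT ligand gene, P-Apex1KO over WT (horizontal axis), on each day, from the fit with genotype and sex. Points are estimates over 7 or 8 mice, bars are 1 standard error, and filled purple points passed the threshold for an adjusted p. *Wnt5b* at 6-dpf (-1.78) and *Wnt4* at 10-dpf (-1.34) and 14-dpf (-1.30) are filled; *Wnt6* was too low to be tested at 10-dpf.

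*Wnt10b*, which favors bone over fat in mesenchymal progenitors, stood at 7.16, 6.93, 6.70, 6.34 and 7.41 CPM in WT and at 6.08, 5.45 and 3.97 CPM in P-Apex1KO at 6-dpf. All P-Apex1KO mice were below WT, with a log2 difference of -0.35 ± 0.16 (adjusted p = 0.20). From 3- to 6-dpf it rose in both genotypes, by 1.48 ± 0.20 in WT (adjusted p = 4.7e-05) and by 1.37 ± 0.22 in P-Apex1KO (adjusted p = 0.00099), and the difference between these changes was -0.11 ± 0.29 (adjusted p = 0.94). At 10-dpf its levels overlapped at 11.5 to 16.6 CPM in WT and 12.5 to 16.2 CPM in P-Apex1KO. At 14-dpf they ran from 8.02 to 11.2 CPM in WT, inside the range of 5.38 to 13.7 CPM in P-Apex1KO.

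*Wnt2* and *Wnt2b* are a pair of related ligands known from lung formation. Group means ran from 0.86 to 2.80 CPM for *Wnt2* and from 1.75 to 5.32 CPM for *Wnt2b*. *Wnt2b* stood at 5.77, 5.80, 6.14 and 3.59 CPM in WT and at 2.27, 4.10 and 3.93 CPM in P-Apex1KO at 10-dpf. Replicate 4 of WT was the only WT mouse within the P-Apex1KO range. The log2 difference was -0.65 ± 0.28 (adjusted p = 0.19), and without that mouse it was -0.94 and passed the threshold (adjusted p = 0.034). Over the 7 fits with 1 mouse left out it ran from -0.94 to -0.28, and only this 1 passed. At 14-dpf *Wnt2b* stood at 4.52, 7.14, 3.56 and 4.98 CPM in WT and at 2.89, 2.79 and 2.57 CPM in P-Apex1KO. The groups did not overlap, which held for 42% of all genes on that day (23.4% lower and 18.5% higher) and for 3 members, *Wnt2b* and *Wnt4* below WT and *Wnt2* above it, and the log2 difference was -0.69 ± 0.36 (adjusted p = 0.26). *Wnt2b* rose from 3- to 6-dpf in WT by 1.10 ± 0.36 (adjusted p = 0.029), a call that was lost without replicate 2 (adjusted p = 0.11), 3 (0.093) or 4 (0.052) of WT at 3-dpf and with library size alone (0.064). *Wnt2* was at 0 counts in replicate 1 of WT at 10-dpf, which allows up to 0.162 CPM at 3 counts, and at 0.91, 2.67 and 0.58 CPM in the others, beside 1.01, 1.73 and 1.499 CPM in P-Apex1KO. At 14-dpf it stood at 1.41, 0.70, 0.79 and 0.52 CPM in WT and at 2.27, 1.44 and 3.23 CPM in P-Apex1KO, all above WT, with a log2 difference of 0.74 ± 0.50 (adjusted p = 0.38).

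*Wnt9a*, a ligand of forming joints, stood at 3.40, 4.29, 23.9 and 8.79 CPM in WT and at 10.9, 13.7 and 14.6 CPM in P-Apex1KO at 10-dpf. Replicate 3 of WT was above every other mouse, and the remaining WT mice were below every P-Apex1KO mouse. The log2 difference was 0.46 ± 0.46 (adjusted p = 0.61) with this mouse and 1.09 without it (adjusted p = 0.021). Over the 7 fits with 1 mouse left out it ran from -0.22 to 1.09, and only this 1 passed the threshold. The summed level of 5 markers of synovial lining and tendon at 10-dpf was 628 CPM in replicate 3 of WT. It was 117 to 211 CPM in the other WT mice and 260 to 463 CPM in P-Apex1KO. Other lists set that replicate apart too. Among the WT mice of that day it had the highest cartilage (43530 CPM) and fibroblast and periosteal progenitor (4269 CPM) sums. Its osteoclast sum (1776 CPM) was the lowest of them. The part of any of these tissues in the result was not tested. At 6-dpf *Wnt9a* stood at 11.8, 7.54, 9.52, 12.4 and 8.79 CPM in WT and at 14.4, 17.5 and 10.5 CPM in P-Apex1KO, with a log2 difference of 0.53 ± 0.21 (adjusted p = 0.14). At 3- and 14-dpf the differences were 0.22 ± 0.25 (adjusted p = 0.92) and 0.38 ± 0.51 (adjusted p = 0.67).

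*Wnt6*, an ectodermal ligand, was near the limit of detection, with 2 to 26 counts per library. At 6-dpf it stood at 0.34, 0.46, 0.48, 0.39 and 0.30 CPM in WT and at 0.61, 0.70 and 0.78 CPM in P-Apex1KO, all above WT. At 3-dpf all P-Apex1KO mice (0.57 to 0.69 CPM) were also above WT (0.23 to 0.53 CPM), the only member whose groups did not overlap that day, beside 3.66% of all genes (1.97% higher and 1.7% lower). The log2 differences were 0.77 ± 0.34 at 6-dpf (adjusted p = 0.19) and 0.62 ± 0.35 at 3-dpf (adjusted p = 0.86), and the low counts limit both. It did not pass the filter on low counts at 10-dpf and overlapped at 14-dpf.

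*Wnt16*, a ligand from osteoblasts that is needed for thick cortical bone, varied widely between mice of a group. At 3-dpf it stood at 6.66, 8.55, 7.41 and 6.17 CPM in WT and at 1.48, 2.56, 7.84 and 6.57 CPM in P-Apex1KO, where replicates 1 and 2 were below every WT mouse and replicates 3 and 4 were within the WT range. The log2 difference was -0.55 ± 0.43 (adjusted p = 0.89). At 14-dpf it stood at 2.58, 2.55, 3.76 and 3.19 CPM in WT and at 7.004, 3.08 and 9.37 CPM in P-Apex1KO. Replicate 2 of P-Apex1KO was within the WT range and the other two were above it. The log2 difference was 1.35 ± 0.59 (adjusted p = 0.19) with that mouse and 1.68 without it (adjusted p = 0.011). Over the 6 fits with 1 mouse left out it ran from 0.99 to 1.68, and only this 1 passed the threshold. At 6- and 10-dpf the *Wnt16* differences were -0.22 ± 0.17 (adjusted p = 0.45) and 0.05 ± 0.24 (adjusted p = 0.92).

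The 14-dpf comparison is limited by sex. The 3 P-Apex1KO mice were all female and only 1 of the 4 WT mice was, which leaves that WT mouse to separate genotype from sex in the fit. Without the sex term 37.2% of all genes and 4 members passed the threshold at 14-dpf: *Wnt4*, *Wnt2* (log2 difference 1.48, adjusted p = 0.018), *Wnt2b* (-0.84, adjusted p = 0.026) and *Wnt16* (1.14, adjusted p = 0.031). With sex in the fit the differences of the last 3 were 0.74 ± 0.50 for *Wnt2*, -0.69 ± 0.36 for *Wnt2b* and 1.35 ± 0.59 for *Wnt16*, in the same directions and none past the threshold (adjusted p = 0.38, 0.26 and 0.19). *Wnt4* stood at 20.8 CPM in the WT female and at 16.3 to 19.2 CPM in the WT males, all above the 7.75 to 8.90 CPM of the P-Apex1KO females.

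From 10- to 14-dpf 4 of 9 members tested fell in WT, beside 4.92% of 19705 genes that did so (11.1% changed in either direction), and none rose, beside 6.19%. The log2 changes were -0.48 ± 0.13 for *Wnt5a* (adjusted p = 0.034), -0.65 ± 0.17 for *Wnt5b* (adjusted p = 0.026), -0.88 ± 0.23 for *Wnt11* (adjusted p = 0.028) and -1.25 ± 0.31 for *Wnt16* (adjusted p = 0.020). These calls are near the threshold. Leaving out 1 of the 8 WT mice left 0 to 3 of them: none without replicate 3 of WT at 10-dpf or replicate 2 of WT at 14-dpf, 1 without replicate 1 or 2 at 10-dpf or replicate 1 or 4 at 14-dpf, 2 without replicate 3 at 14-dpf and 3 without replicate 4 at 10-dpf. Without replicate 2 of P-Apex1KO at 14-dpf *Wnt10b* joined them (-0.56, adjusted p = 0.014). In P-Apex1KO no member passed (edgeR, with 3 at an unadjusted p under 0.05, beside 0.259% of all genes called, 0.228% lower and 0.0304% higher). DESeq2 called *Wnt5a* alone, beside 2.34% of all genes. The changes in P-Apex1KO were -0.70 ± 0.17 for *Wnt5a* (adjusted p = 0.088), -0.69 ± 0.21 for *Wnt5b* (adjusted p = 0.17), -0.80 ± 0.29 for *Wnt11* (adjusted p = 0.24) and -0.02 ± 0.37 for *Wnt16* (adjusted p = 0.99). No member passed the test of the difference between the genotypes' changes, beside 0.436% of all genes (0.396% with a lower and 0.0406% with a higher difference). DESeq2 called none either, and 1 member, *Wnt16* (1.24 ± 0.50, adjusted p = 0.31), had an unadjusted p under 0.05.

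At 3-dpf no member and no gene passed between the genotypes (edgeR quasi-likelihood test; DESeq2 also called no member), and 1 member, *Wnt4*, and 1216 of 19866 genes had an unadjusted p under 0.05. The median log2 difference of the members was 0.26 at 3-dpf, -0.24 at 6-dpf, 0.05 at 10-dpf and 0.32 at 14-dpf, beside medians of 0.00, 0.01, 0.00 and 0.04 over all genes tested.

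Of the 9 mouse WNT ligand genes outside the 10 members, *Wnt3*, *Wnt3a*, *Wnt7a*, *Wnt8a* and *Wnt8b* did not exceed 0.120 CPM in any mouse. No gene of this list was called on any day, with 3 tested each day. *Wnt7b*, a ligand of bone-forming cells, stood at 2.24, 3.67, 1.83 and 3.63 CPM in WT and at 1.12, 1.15 and 1.52 CPM in P-Apex1KO at 14-dpf. *Wnt1*, a ligand whose loss causes brittle bone, stood at 0.68, 1.48, 1.04 and 1.22 CPM in WT and at 0.29, 0.43 and 0.10 CPM in P-Apex1KO on that day. The groups did not overlap for either gene, as for 42% of all genes on that day (23.4% lower), and the log2 differences were -0.80 (adjusted p = 0.29) for *Wnt7b* and -1.28 (adjusted p = 0.25) for *Wnt1*. Both were named after their values were seen.

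The other genes of the pathway are given by role, and their counts stand beside the shares of all genes called, which were 5.61% lower and 5.31% higher at 6-dpf, 3.44% and 3.01% at 10-dpf, and 7.04% and 4.28% at 14-dpf. Of 8 genes for WNT secretion and modification, 2 were lower at 6-dpf, among them *Gpc6*, a glypican that holds ligands at the cell surface (log2 difference -0.70, adjusted p = 0.0037), and *Tmed2*, a cargo receptor of the secretory route (-0.38, adjusted p = 0.022), 1 at 10-dpf and 2 at 14-dpf. The medians of the list were -0.265, -0.07 and -0.50 at 6-, 10- and 14-dpf, beside 0.01, 0.00 and 0.04 over all genes. *Notum*, which removes the lipid from WNT ligands, was at -0.95 at 10-dpf (adjusted p = 0.020) and at -1.94 at 14-dpf (adjusted p = 0.0017). *Gpc6* was again lower at 14-dpf (-0.75, adjusted p = 0.0091), and none of these 8 genes was higher on any day.

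The list of frizzled and LRP receptors also holds the Kremen genes. Of its 13 genes tested, none was called at 6-dpf, 1 was lower at 10-dpf and 2 were lower at 14-dpf, beside 10.9%, 6.46% and 11.3% of all genes called in either direction, so these counts are near the background. The medians of this list, Kremen genes included, were -0.29, -0.02 and -0.10. *Lrp5*, the co-receptor whose gain or loss of function raises or lowers bone mass, was -0.67 at 10-dpf (adjusted p = 0.013) and -1.42 at 14-dpf (adjusted p = 0.00098), and *Fzd3* was -1.02 at 14-dpf (adjusted p = 0.023). Of 11 genes for receptors and partners of signaling without beta-catenin, 3 were lower and 1 higher at 6-dpf, 1 lower and 1 higher at 10-dpf, and 4 lower at 14-dpf, and the list's medians were -0.32, -0.07 and -0.45. At 6-dpf, when *Wnt5b* was lower, *Ryk* was -0.49 (adjusted p = 0.027) and *Prickle1*, a planar polarity gene, was -0.66 (adjusted p = 0.023). *Ror2*, a receptor of WNT5A, was -0.78 (adjusted p = 0.047) and was named after its value was seen. At 14-dpf *Ptk7* (-1.13, adjusted p = 0.012) and *Vangl2* (-0.79, adjusted p = 0.015), both of cell polarity, were lower, as was *Ryk* (-0.97, adjusted p = 0.017). The gene that was higher was *Musk*, the agrin co-receptor of muscle, at 0.72 at 6-dpf (adjusted p = 0.038) and 1.27 at 10-dpf (adjusted p = 0.015).

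R-spondins raise the amount of frizzled at the membrane, which does not hold for every gene listed with them, *Znrf3* among these. Of this list 2 of 8 genes tested were lower at 6-dpf, *Lgr4* (-1.02, adjusted p = 0.0071) and *Lgr6* (-1.49, adjusted p = 0.0082), and 1 was higher, *Rspo2* (1.08, adjusted p = 0.0078). None was called at 10-dpf, and 2 of 9 were lower at 14-dpf, *Znrf3* (-0.58, adjusted p = 0.042) and *Rspo3* (-0.97, adjusted p = 0.048). The medians of this list were 0.03, -0.08 and 0.14. Of 11 secreted inhibitors tested, *Frzb*, a cartilage antagonist, was lower at 6-dpf (-1.91, adjusted p = 0.0076) and *Sost*, the osteocyte inhibitor sclerostin, was higher (1.36, adjusted p = 0.011). At 10-dpf *Dkk2* alone of 10 was called (0.71, adjusted p = 0.022). At 14-dpf *Wif1* (-1.62, adjusted p = 0.0055), *Sost* (-1.42, adjusted p = 0.0079) and *Dkk1* (-2.17, adjusted p = 0.019) were lower and none was higher. The medians of this list were -0.22, -0.04 and 1.21, and at 14-dpf 8 of its 11 genes were above 0, opposite to the 3 called. The 14-dpf values come from the fit with sex, in which the only WT female separates genotype from sex, so this median is limited by that mouse.

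Of 19 genes of the beta-catenin pathway and its targets tested, 4 were lower at 6-dpf, 4 at 10-dpf and 7 at 14-dpf, beside 5.61%, 3.44% and 7.04% of all genes, and none was higher on these days. *Tcf7l2*, a partner of beta-catenin on DNA, was -0.65 at 6-dpf (adjusted p = 0.0056) and -1.02 at 10-dpf (adjusted p = 0.0073). *Tcf7*, another such partner and itself a target, was -1.05 at 10-dpf (adjusted p = 0.0099) and -1.86 at 14-dpf (adjusted p = 0.00083). *Apcdd1* (-1.40, adjusted p = 0.0028) and *Ccn4* (-1.41, adjusted p = 0.0034), both known targets, were lower at 14-dpf. The medians of this list were -0.19, -0.22 and -0.53 at 6-, 10- and 14-dpf, beside 0.01, 0.00 and 0.04 over all genes. No gene of these 7 lists was called at 3-dpf, and the bone marker lists given above were lower on the same days as the pathway calls, with a part in these counts that was not tested.

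**Figure D4:**
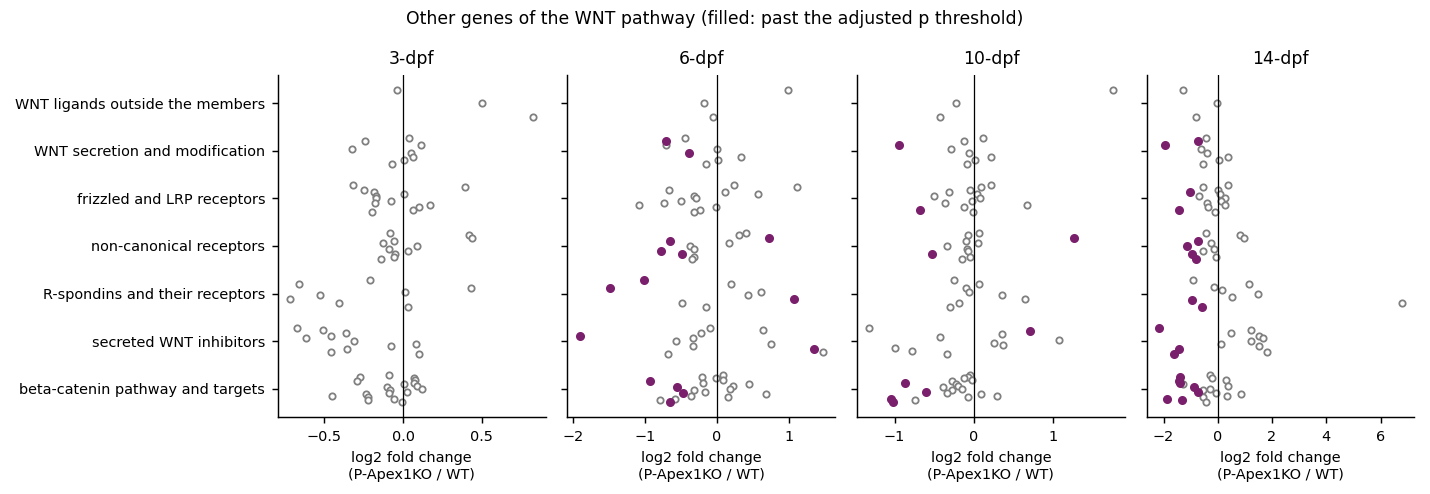
Log2 fold change, P-Apex1KO over WT (horizontal axis, scaled separately on each day), of each tested gene of 7 lists of other WNT pathway genes (rows) at 3-, 6-, 10- and 14-dpf. Each point is 1 gene and filled purple points passed the threshold for an adjusted p; the beta-catenin row has 0, 4, 4 and 7 filled points, all left of 0, and the open point at 6.80 on 14-dpf is *Rspo4*.

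By the distance between group means of log2 CPM over the 8 groups, each gene centred on its own mean, the protein-coding genes most like *Wnt5b* among 13785 were *Car8* (root mean square distance 0.187) and *Ptch1* (0.197), a receptor and target of hedgehog signaling. *Ptch1* averaged 276 CPM in WT and 91.7 CPM in P-Apex1KO at 6-dpf. Most like *Wnt4* were *Kazn* (0.263) and *Vldlr* (0.265), with *Vldlr* at 168 and 111 CPM at 10-dpf and at 218 and 118 CPM at 14-dpf in WT and P-Apex1KO. These distances describe 8 group means that share their libraries.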

How the data were processed

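RNA was extracted from the callus with Trizol, and stranded total RNA libraries were made after depletion of ribosomal and beta globin RNA. The authors deposited raw counts, whole numbers of reads per Ensembl gene without normalization, and gave the genotype, day and sex of each mouse in the labels. Per the submitters' processing notes and the study's methods, reads were aligned to mm39 with STAR 2.7.0d and reverse-stranded unique reads were counted with featureCounts. A gene and its antisense partner are therefore told apart. The mice are separate animals.

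Symbols and positions came from GENCODE M39 on GRCm39, which holds 54749 of the 55416 IDs. Libraries held 18334389 to 43111491 counts, and precision is limited by 3 to 5 mice per group. No pair of libraries of a group agreed within sampling noise (chi-square per degree of freedom of 5.65 to 127 over 43 pairs).

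Each day was fitted on all genes with edgeR 4.0.16 in R 4.3.3 (filterByExpr, TMM, genotype and sex, robust quasi-likelihood F test), with Benjamini-Hochberg adjustment and a threshold of 0.05. Changes over time used models of 2 days with 4 groups and sex. All 10 members passed the filter except *Wnt6* at 10-dpf. Days 6 and 10 were not tested against each other. CPM are TMM-scaled over all 30 samples. Standard errors are the log2 change divided by the square root of F. The scripts were tested on simulated data.

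The members and all gene lists were chosen with earlier results of these data known. All members are reported, on every day in the figures, while the text leaves out some days and some changes between days. Of each other list up to 3 called genes with the smallest adjusted p on a day are reported. Marker lists are cartilage, hypertrophic chondrocyte, osteoblast and osteocyte, osteoclast, fibroblast and periosteal progenitor, skeletal muscle, macrophage, B cell, T cell, neutrophil, endothelium, adipocyte, keratinocyte, synovial lining and tendon, and erythroid; *Vpreb1* had no match. Alternatives were DESeq2 1.42.0, no sex term, other scalings and filters, all samples in one model, the replicate block, and each mouse left out.

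Deviations of same-numbered mice of the 2 genotypes from their group means correlated at 0.504, 0.129, 0.205 and 0.172 at 3-dpf, over 0.1 in every pair. Mice of different numbers were not compared and the labels state no pairing, so these values cannot show whether the numbers pair the mice. On other days the correlations ran from -0.376 to 0.277, with pairs under 0.1 on each.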

Additional observations from a re-analysis of the deposited data

Results flagged for a closer look

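The genotype difference of *Wnt5b* changed from 3- to 6-dpf by a log2 difference of -1.67 (adjusted p = 0.0037, edgeR quasi-likelihood test of the interaction), with 5 of 5 WT mice at 6-dpf above every P-Apex1KO mouse of that day. *Wnt2b* at 3.59 CPM and *Wnt11* at 4.84 CPM in replicate 4 of WT at 10-dpf lay far below the other WT mice of that day by Dixon's test, among 50 groups examined, in which chance alone flags about 5% of groups.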

How the results depend on the processing

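The calls of *Wnt5b* at 6-dpf and of *Wnt4* at 10- and 14-dpf held in each alternative fit run, and no called member changed direction. At 6-dpf 2 members were called with DESeq2, without the sex term, without a filter and with all 30 samples in one model (*Wnt5a* joined *Wnt5b*), and 2 with library size alone (*Wnt9a* joined). The share of all genes called, 10.9% in the main fit, moved too. It was 16.1% with DESeq2, 13.8% without the sex term, 6.61% without a filter, 14.9% with all 30 samples and 17.7% with library size alone. Library size alone shifted the median of all genes at 6-dpf from 0.01 to 0.20 and at 14-dpf from 0.04 to 0.31 on the log2 scale, and against that shift *Wnt5a* at 14-dpf was 0.17 in place of -0.10. At 14-dpf 4 members were called without the sex term, beside 37.2% of all genes. From 10- to 14-dpf in P-Apex1KO the count of 0 became 1 with DESeq2, 1 without a filter, 2 without the sex term and 2 with all 30 samples. The share of all genes called went from 0.259% to 2.34%, 0.613%, 3.51% and 2.46% in these fits.

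Leaving out 1 mouse gave 1 to 2 calls at 6-, 10- and 14-dpf and 0 to 5 for the change from 10- to 14-dpf in WT. Leaving out replicate 1 of WT at 14-dpf, its sole female, could not be fitted with sex on that day. The replicate block in place of sex changed no count at 3-dpf (0 calls), 6-dpf (1), 10-dpf (1), 14-dpf (1) or for 3- to 6-dpf (6 in WT, 2 in P-Apex1KO). It gave 3 in WT from 10- to 14-dpf, beside 8.28% of all genes, and 1 call, *Wnt5a*, in P-Apex1KO from 10- to 14-dpf, beside 3.33%. Of 1897 estimates of single members under these alternatives 98 had another sign, none of them past the threshold. Where a count moved, the cause was not tested. Depth limits *Wnt6* and *Wnt2*, with at most 26 counts per library for *Wnt6*.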
